A study of Mus musculus with 6 samples.

Results

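The factors described are 10 transcription factors that mark or act in the sclerotome and its cartilage and tendon derivatives, namely Pax1, Pax9, Nkx3-2, Sox9, Sox5, Sox6, Scx, Foxc1, Foxc2 and Twist1. They were taken by gene symbol: each probe set annotated to exactly 1 gene symbol on that list was used, which gave 17 probe sets of 22626 and 10 genes of 12393 measured. All 10 genes were on the array, 5 with a single probe set and 5 with several. The tissue came from mouse embryos at 9.5 days post coitum, cut between the otic placode and the most recent somite with heart and endoderm removed, so that it held somites with neural tube and other tissue of that level. The Dll3 mutant pools were homozygous for the targeted Dll3-tm1Rbe allele, also called Dll3neo, and the wild-type pools carried normal Dll3 copies. All pools are labelled c57bl/6, and no pool received a treatment. RNA of 3 Dll3 mutant pools and 3 wild-type pools was hybridised to 6 Affymetrix MOE430A arrays, and the design text calls the pools biological replicates. The number of embryos per pool is not stated in the labels.

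Each somite divides into an epithelial dermomyotome and a mesenchymal sclerotome, and the sclerotome gives rise to vertebrae, ribs and, at its edge, tendon. Sonic hedgehog from notochord and floor plate, with BMP antagonists, induces Pax1, Pax9 and Nkx3-2 in the ventral somite, and Sox9 with Sox5 and Sox6 then drives cartilage differentiation. Dll3 is a Notch ligand of unusual structure on which regular somite boundaries depend, and the vertebrae and ribs of Dll3 mutant mice are malformed. The comparison asked whether the factors that program these skeletal precursors differed in level when Dll3 was disrupted.

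Promoter sequences of 3 factors are shown because their genes span the range of behaviour among the 10: Pax9 varied least between pools of a genotype, while Foxc1 and Pax1 were among those that varied most. The sequences are RefSeq's (build GRCm38.p6) and cover 250 bases before to 50 bases after a start site, 5′ to 3′ on the gene's strand, which is the plus strand for these 3 genes. Capitals mark TGGGAA or its reverse complement TTCCCA, the core letters bound by RBPJ, the DNA-binding protein of the Notch pathway. The window of Pax9 lies at chr12:56695221-56695520, that of Foxc1 at chr13:31806396-31806695 and that of Pax1 at chr2:147364744-147365043.
Pax9: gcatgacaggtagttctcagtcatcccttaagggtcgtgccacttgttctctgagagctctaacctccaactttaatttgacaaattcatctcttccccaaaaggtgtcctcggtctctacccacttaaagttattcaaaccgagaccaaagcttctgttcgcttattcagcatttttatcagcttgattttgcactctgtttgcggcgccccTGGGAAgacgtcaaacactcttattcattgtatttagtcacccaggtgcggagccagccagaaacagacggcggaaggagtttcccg
Foxc1: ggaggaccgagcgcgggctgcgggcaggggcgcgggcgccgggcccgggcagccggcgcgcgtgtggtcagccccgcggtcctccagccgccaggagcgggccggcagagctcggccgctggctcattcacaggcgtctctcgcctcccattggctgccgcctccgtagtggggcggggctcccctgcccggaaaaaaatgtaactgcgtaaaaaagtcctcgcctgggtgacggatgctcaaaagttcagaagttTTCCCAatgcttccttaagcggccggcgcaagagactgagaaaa
Pax1: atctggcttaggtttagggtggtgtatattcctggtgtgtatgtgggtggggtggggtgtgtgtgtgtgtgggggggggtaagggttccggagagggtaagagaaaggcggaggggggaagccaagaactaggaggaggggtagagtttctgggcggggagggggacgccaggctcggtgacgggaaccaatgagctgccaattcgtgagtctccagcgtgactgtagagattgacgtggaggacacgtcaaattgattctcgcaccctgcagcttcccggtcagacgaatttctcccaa

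Promoter sequences were matched for 7 of the 10 genes, with 12 windows in all, of which 6 belong to Sox6. Sox9, Scx and Foxc2 are named only. TGGGAA was found on either strand in 2 of the 12 windows, those of Pax9, where it begins 37 bases before the start site, and Foxc1, where it begins 6 bases after it. The same letters occur in 25.6% of all 32851 windows of that length. The longer form GTGGGAA, which contains the core, occurs in 6.38% of all windows, and the letters TGGGTGGTC, bound by the GLI factors of hedgehog signalling, occur in 0.253%. No window of the 10 factors held either of these. A match is a description of the letters and not a bound site.

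Each value is a ratio of a probe set's signal in 1 pool to that probe set's own reference, so the values compare pools and hold no expression level. Levels of different factors could therefore not be compared, and whether a factor lay near background is unknown. For the same reason the labelled tissue could not be checked against the presence or absence of its defining markers. Since the tissue is a mixture, fewer sclerotome cells and less RNA per cell cannot be told apart. Precision is limited by the number of arrays, and SEs of gene differences on the log2 scale had a median of 0.0869. Dll3 itself, with 1 probe set, was at 0.983 ± 0.038 in mutant pools and 0.997 ± 0.034 in wild-type pools (SD, n = 3 each), and since no source used here places that probe set relative to the targeted change, it does not check the labels. Xist, the noncoding RNA of the inactive X chromosome and so a marker of female embryos, had gene values of 0.12, 0.77 and 0.49 in mutant pools, against -0.04, -1.23 and -1.26 in wild-type pools on the log2 scale. By gene value every mutant pool lay above every wild-type pool, but by the Xist probe sets 1427263_at and 1436936_s_at the groups overlapped. The Xist difference of 1.30 (SE 0.286) had an unadjusted p of 0.000968 and an adjusted p of 0.9997 in limma. The Y-linked genes Eif2s3y, Kdm5d and Uty were at -0.48 (SE 0.181), -0.19 (SE 0.102) and -0.30 (SE 0.135). Their unadjusted p was 0.0228, 0.0976 and 0.0531 in limma, with the same adjusted p as Xist. The sex of the embryos in each pool is not stated, and with a score of these 4 genes as a covariate the log2 differences of the factors ran from -0.34 for Twist1 and -0.31 for Pax1 to 0.34 for Foxc1, none past an adjusted p of 0.05 in limma. That score was higher in every mutant pool (0.04, 0.81 and 0.73) than in every wild-type pool (-0.08, -1.48 and -1.73). Score and genotype are thus confounded, so the differences with this covariate are poorly determined and are not values corrected for sex. The part of embryo sex in the values was not tested further.

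None of the 10 factors was called different between the genotypes. No member probe set or gene passed an adjusted p of 0.05 in limma (Benjamini-Hochberg over the whole table), where 0% of all 22626 probe sets passed. Without adjustment, 0 of the 17 member probe sets had a p under 0.05, against 2.63% of all probe sets, and 0 of the 10 genes did, against 2.67% of all genes. The smallest unadjusted p was 0.147 among the probe sets and 0.104 among the genes. The member probe sets were split between 8 with higher and 9 with lower means in the mutant pools, with log2 differences of -0.18 to 0.12. Averaged by gene, 3 factors had positive and 7 had negative differences, with a median of -0.01 on the log2 scale, and the same median over all genes was 0.00348. For 6 of the 10 genes the 95% interval of the difference lay within 0.3 of 0 on the log2 scale, a bound between 0.812-fold and 1.23-fold.

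**Figure D1:**
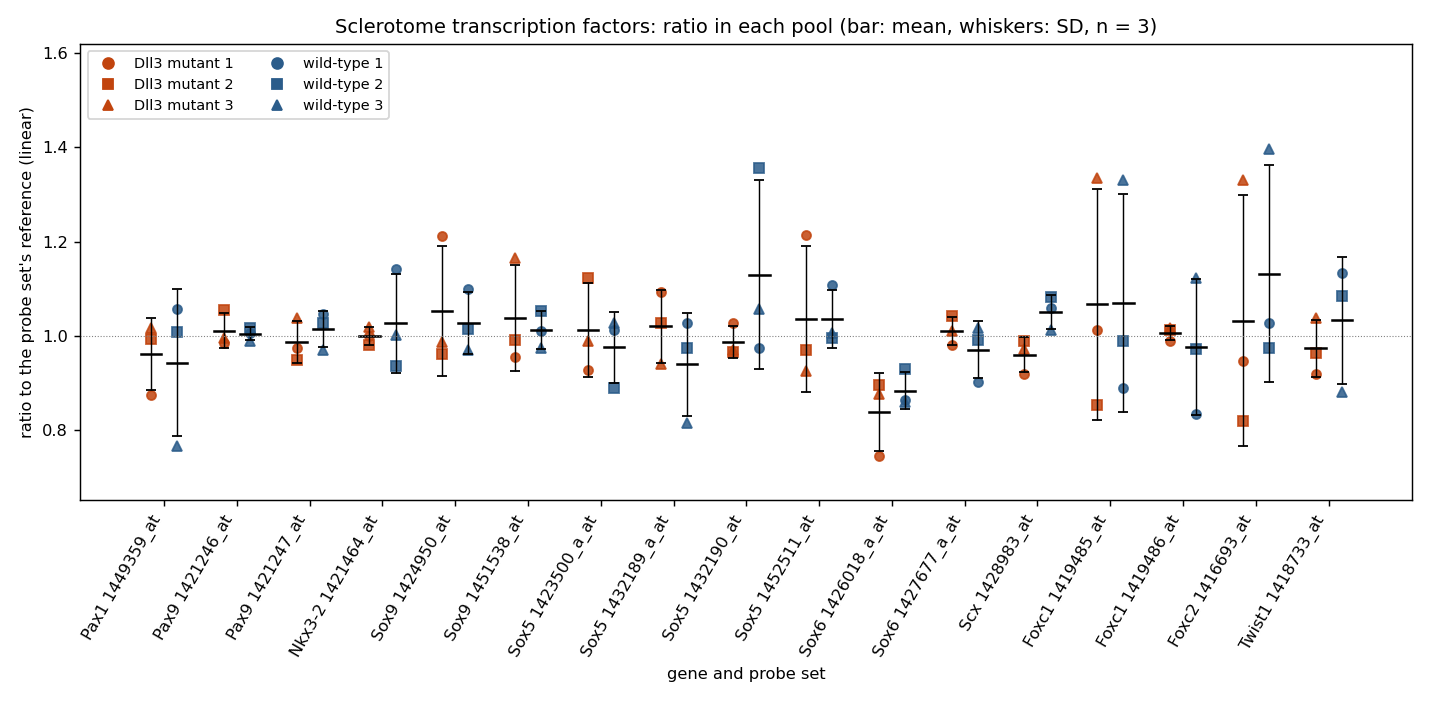
Ratio of each member probe set to its own reference (vertical axis, linear) in the 3 Dll3 mutant pools (orange) and the 3 wild-type pools (blue), with marker shape for the replicate number, a bar for the mean and whiskers for the SD (n = 3). Values run from 0.743 to 1.396, and the groups overlap for every probe set except that of Scx.

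No difference was detected in the 3 factors that define the ventral sclerotome. Pax1, a paired-box factor needed for vertebral bodies and discs, had ratios of 0.874, 0.993 and 1.016 in mutant pools, against 1.056, 1.007 and 0.765 in wild-type pools. The lowest value of all was in wild-type replicate 3, and the mutant pools lay inside the wild-type range. Its log2 difference was 0.04 (SE 0.121, 95% interval -0.23 to 0.31), so a rise above 1.24-fold or a fall below 0.853-fold lay outside the interval.

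Pax9, the close relative that acts together with Pax1 in the axial skeleton, was read by 2 probe sets. By 1421246_at its ratios were 0.984, 1.054 and 0.994 in mutant pools, against 1.006, 1.017 and 0.989 in wild-type pools. By 1421247_at they were 0.973, 0.949 and 1.037 in mutant pools, against 1.045, 1.027 and 0.97 in wild-type pools. Both probe sets overlapped between genotypes, and their mean gave a log2 difference of -0.02 (SE 0.0701, 95% interval -0.17 to 0.14), the narrowest interval of the 10 factors, between 0.888-fold and 1.10-fold.

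Nkx3-2, a homeobox repressor that acts downstream of Pax1 and Pax9 in promoting cartilage, had ratios of 0.999, 0.981 and 1.018 in mutant pools, against 1.142, 0.936 and 1.001 in wild-type pools. The mutant pools lay close together inside the wider wild-type spread. Mutant minus wild-type, the log2 difference came to -0.03 (SE 0.0867, 95% interval -0.23 to 0.16).

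None of the cartilage regulators Sox9, Sox5 and Sox6 passed the test either. Sox9, the master regulator of cartilage, which is also active in neural crest and notochord, had 2 probe sets with nearly the same difference, 0.0297 and 0.0304 on the log2 scale. Its pools did not rank alike by them: 1424950_at gave 1.211, 0.961 and 0.986 in mutant pools, against 1.098, 1.014 and 0.969 in wild-type pools. By 1451538_at the ratios were 0.954, 0.991 and 1.166 in mutant pools, against 1.009, 1.053 and 0.974 in wild-type pools. The highest pool was thus mutant replicate 1 by one probe set and mutant replicate 3 by the other. The gene value differed by 0.03 (SE 0.0771, 95% interval -0.14 to 0.20).

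Sox5 and Sox6 encode related partners of Sox9 that bind beside it at cartilage genes. The 4 probe sets of Sox5 disagreed in sign, with log2 differences of 0.12 for 1432189_a_at, 0.05 for 1423500_a_at, -0.01 for 1452511_at and -0.18 for 1432190_at. By the last of these wild-type replicate 2 was highest at 1.356, while the mutant pools were at 1.026, 0.966 and 0.969 and the other two wild-type pools at 0.974 and 1.057. Averaged over the 4, Sox5 was at -0.00348 (SE 0.0758, 95% interval -0.17 to 0.16). The probe sets of Sox6 also differed in sign, at -0.08 for 1426018_a_at and 0.06 for 1427677_a_at, and the gene value was -0.01 (SE 0.0793, 95% interval -0.19 to 0.17). Mutant replicate 1 was lowest by 1426018_a_at, at 0.743, and that probe set was the only one of the 17 whose median over the pools was below 1. Probe sets of a gene can read different transcripts, and which ones these read is not stated.

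**Figure D2:**
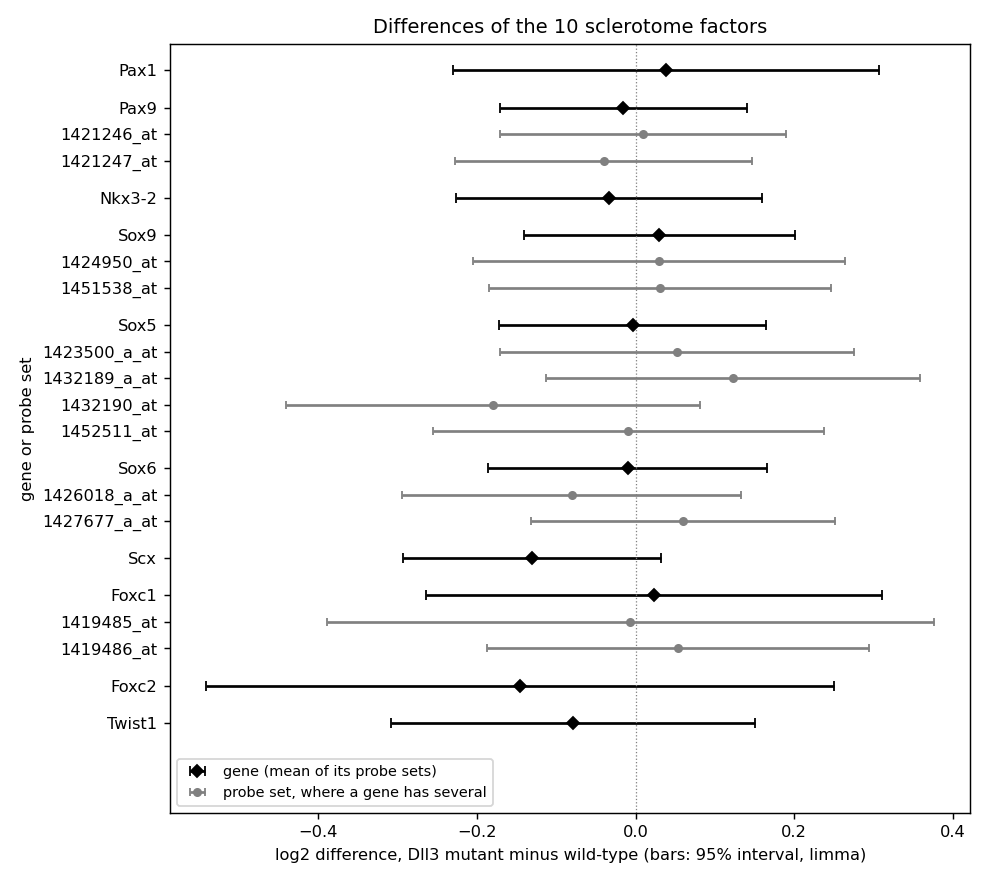
Log2 difference, Dll3 mutant minus wild-type, of each gene (black diamonds) and, for genes with several, of each probe set (grey circles), with 95% intervals from limma. Every interval includes 0, and Foxc2 has the widest of the 10 genes, from -0.54 to 0.25.

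Scx was the only factor whose pools did not overlap between genotypes. This basic helix-loop-helix factor marks tendon precursors at the border of sclerotome and myotome. Its ratios were 0.919, 0.989 and 0.971 in mutant pools, against 1.059, 1.081 and 1.011 in wild-type pools. Every mutant pool lay below every wild-type pool, by a narrow margin between 0.989 and 1.011. Mutant minus wild-type, the log2 difference came to -0.13 (SE 0.0732, 95% interval -0.29 to 0.03), and limma gave an unadjusted p of 0.104 and an adjusted p of 0.9997 over all genes. The exact two-sided permutation p was 0.1, the smallest that 3 pools against 3 allow. Groups that did not overlap were found for 1 of the 10 factors and 1 of the 17 member probe sets, beside 7.46% of all genes and 7.46% of all probe sets, so this count is near the background. Scx also varied little within a genotype: its pooled SD of 0.0524 on the log2 scale was larger than that of 9.91% of genes.

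Foxc1 and Foxc2, forkhead factors of paraxial mesoderm that also act in vessels, kidney and heart, varied more between pools of a genotype than between genotypes. By 1419485_at Foxc1 had ratios of 1.012, 0.853 and 1.334 in mutant pools, against 0.888, 0.988 and 1.331 in wild-type pools. Foxc2 had ratios of 0.947, 0.818 and 1.331 in mutant pools, against 1.026, 0.974 and 1.396 in wild-type pools. In both genotypes the pool numbered 3 was high and the other two were lower. The other probe set of Foxc1, 1419486_at, gave 0.988, 1.012 and 1.016 in mutant pools, against 0.833, 0.972 and 1.123 in wild-type pools, where the pool numbered 3 was again highest in each genotype but by little in the mutant. Wild-type replicate 1 was lowest by that probe set.

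The genotype difference was 0.02 for Foxc1 (SE 0.13, 95% interval -0.26 to 0.31) and -0.15 for Foxc2 (SE 0.178, 95% interval -0.54 to 0.25), both on the log2 scale. The SD within a genotype was 0.216 for Foxc1 and 0.323 for Foxc2, larger than that of 95.1% and 99.7% of all genes. A change of Foxc2 to 0.687-fold or 1.19-fold therefore still lies at the edge of its interval, and the fit with genotype alone bounds this factor least. Between pools numbered 1, 2 and 3, Foxc2 differed by -0.12, -0.25 and -0.07, and Foxc1 by 0.22, -0.08 and -0.07. With a replicate block, limma gave Foxc2 an unadjusted p of 0.078, against 0.433 with genotype alone, and an adjusted p of 0.972. Neither gene kept its direction when single pools were left out. Foxc1 then ran from -0.09, without wild-type replicate 1, to 0.16, without wild-type replicate 3. Foxc2 ran from -0.34, without mutant replicate 3, to 0.02, without wild-type replicate 3. Without both pools numbered 3, chosen after the data were seen, the difference was 0.07 for Foxc1 and -0.18 for Foxc2.

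Markers of other cell types were followed by the mean log2 value of each list in each pool. The 9 markers of endoderm and surface epithelium averaged 0.11, -0.06 and 0.19 in mutant replicates 1, 2 and 3, and -0.21, -0.21 and 0.15 in wild-type replicates 1, 2 and 3. Their highest mean in each genotype was thus in the same pools as the highest values of the Foxc genes. Of the 4 measured notochord and floor plate markers, Foxa1 and Foxa2 are in the endoderm list too. The 4 averaged -0.01, -0.08 and 0.15 in mutant pools and -0.10, -0.06 and 0.06 in wild-type pools, highest in both pools numbered 3. The single genes did not all move together. Shh was at -0.26, -0.09 and 0.06 in mutant pools and -0.03, 0.03 and 0.10 in wild-type pools, highest in both pools numbered 3. Foxa2 was highest in both pools numbered 2. Foxa1 was at 0.11, -0.12 and 0.59 in mutant pools and -0.39, -0.35 and 0.21 in wild-type pools, highest in both pools numbered 3, while Nog, a BMP antagonist of the notochord, was at 0.15, -0.16 and -0.00144 in mutant pools and 0.10, 0.00144 and -0.16 in wild-type pools. Nog was named after its values were seen. The 10 endothelial markers averaged -0.07, 0.06 and 0.06 in mutant pools and 0.00151, -0.02 and -0.05 in wild-type pools. Among wild-type pools they were lowest in replicate 3, where both Foxc genes were highest. The 17 other regulators of somite and sclerotome, described below, averaged -0.20, -0.04 and 0.04 in mutant pools and -0.03, 0.03 and 0.06 in wild-type pools. They too were highest in both pools numbered 3, so that trait is not particular to the endoderm and notochord markers. Intermediate mesoderm markers averaged 0.0213, -0.0757 and 0.0235 in mutant pools and -0.00731, 0.0363 and 0.00262 in wild-type pools, highest in wild-type replicate 2. The part of these lists in the Foxc values was not tested.

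**Figure D3:**
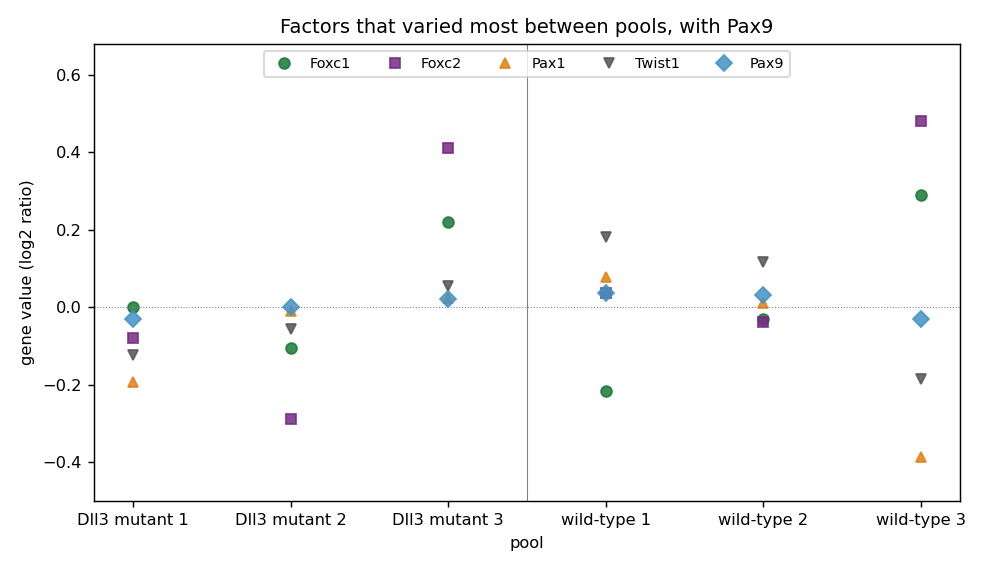
Gene value (log2 ratio, vertical axis) of the 4 factors with the largest spread within a genotype, Foxc1, Foxc2, Pax1 and Twist1, and of Pax9, in each Dll3 mutant and wild-type pool. Foxc2 is at 0.41 in mutant replicate 3 and 0.48 in wild-type replicate 3, while Pax1 is lowest, at -0.39, in wild-type replicate 3.

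Twist1, a basic helix-loop-helix factor of mesenchyme in cranial, limb and somitic tissue, had ratios of 0.918, 0.962 and 1.038 in mutant pools, against 1.134, 1.084 and 0.879 in wild-type pools. Wild-type replicates 1 and 2 were above all mutant pools and wild-type replicate 3 was below all of them. Its log2 difference was -0.08 (SE 0.103, 95% interval -0.31 to 0.15). Leaving out 1 pool at a time, it was strongest at -0.19 when wild-type replicate 3 was dropped. It was weakest at -0.00699 when wild-type replicate 1 was dropped. Without both pools numbered 3, a comparison added after the data were seen, it was -0.24. Limma gave this an unadjusted p of 0.0252 and an adjusted p of 0.9996. Pax1 was lowest in that same wild-type pool, and its difference was -0.10 without that pool and -0.15 without both pools numbered 3. The 10 markers of lateral plate and limb mesoderm, tissue in which Twist1 is also active, averaged -0.04, -0.06 and 0.05 in mutant pools and 0.15, 0.06 and -0.09 in wild-type pools, so they too had their lowest value in wild-type replicate 3 and their highest in wild-type replicate 1. This was not particular to limb mesoderm. Relatives of the factors, cartilage matrix and tendon genes, described below, were also lowest in wild-type replicate 3, at -0.05, -0.11 and -0.13. The relatives were highest in wild-type replicate 1 as well, at 0.04. Hedgehog and BMP antagonist genes (-0.0096) and other regulators of somite and sclerotome (0.06) were not lowest in wild-type replicate 3. The part of the limb mesoderm markers in the Twist1 values was not tested.

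Across the 10 factors no pool was uniformly high or low. Wild-type replicate 1 held the highest value for 4 of them, and mutant replicate 1 and wild-type replicate 3 held the lowest for 3 each. Those latter pools also had the lowest array weights in limma over all probe sets, 0.550 for mutant replicate 1 and 0.482 for wild-type replicate 3. The weights of the other pools ran from 1.03 to 1.85, so values in these 2 pools varied more across the whole array. The median over the 10 gene values was -0.05, -0.03 and 0.02 in mutant pools and 0.06, 0.02 and -0.04 in wild-type pools on the log2 scale. The groups overlapped. The SD within a genotype was above the median of all genes, 0.106, for 4 factors: Foxc2, Foxc1, Pax1 at 0.196 and Twist1 at 0.152. It was lowest for Pax9, at 0.0322, larger than that of 2.11% of genes. Of the 12383 other genes, those whose pattern over the 6 pools was most like the mean of Pax1, Pax9 and Nkx3-2 were Il10rb, which encodes a cytokine receptor chain (Pearson r = 0.994, Spearman rho = 1), Pitx1, a hindlimb homeobox gene (r = 0.993, rho = 0.943), and the agouti gene a (r = 0.983, rho = 1). With 6 pools and that many genes such values describe a ranking only, and all genes of a pool share its array and sample.

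The genes around these factors were read through 5 lists with 81 genes measured, 43 higher and 38 lower in the mutant pools, and 0 of them passed the adjusted threshold in the fit with genotype alone. Unadjusted, 3 had a p under 0.05, namely Uncx, Vcan and Fmod, which is 3.7% of the 81. Of 16 hedgehog and BMP antagonist signals that induce the sclerotome, 8 were higher and 8 lower (median -0.00419). The values ran from -0.14 (SE 0.0797) for Grem1, a secreted BMP antagonist, to 0.10 (SE 0.123) for Smo, the hedgehog signal transducer.

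Of 17 other regulators of somite and sclerotome, 6 were higher and 11 lower (median -0.06). Uncx, a homeobox gene of the caudal sclerotome, stood far from the rest at -0.998 (SE 0.124, unadjusted p = 9.39e-06, adjusted p = 0.116 in limma over all genes). Its gene values were -0.53, -0.90 and -0.40 in mutant pools, against 0.31, 0.52 and 0.34 in wild-type pools, with no overlap. Its call depended on the fit: in limma its adjusted p over all genes was 0.0348 with a replicate block, 0.0213 with array weights and 0.0379 with a variance trend, each past the threshold. Uncx did not pass in any other alternative. There the smallest adjusted p of any gene in limma was, for example, 0.212 with quantile normalization, 0.843 without wild-type replicate 2 and 0.99996 with the sex score. It was the only gene of the list with an unadjusted p under 0.05. The highest value was 0.24 (SE 0.143) for Zic1, a zinc-finger factor of neural tube and dorsal somite.

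Cartilage matrix genes, in part targets of Sox9, were split evenly, with 8 higher and 8 lower of 16 and a median of -0.00467. Vcan, a proteoglycan of embryonic matrix, was at 0.31 (SE 0.128, 95% interval 0.02 to 0.59), and the cartilage matrilin gene Matn3 was at -0.16 (SE 0.0763). Of 16 genes of tendon and its induction, 11 were higher and 5 lower (median 0.04). Egr1, a zinc-finger factor of tendon and of the immediate early response, was at 0.22 (SE 0.113), and Fmod, a collagen-binding proteoglycan of tendon, was at -0.15 (SE 0.0694). Among 16 relatives of the factors in the Sox, Pax, forkhead and helix-loop-helix families, 10 were higher and 6 lower (median 0.00912), with Foxd1, a forkhead factor of kidney stroma, at 0.14 (SE 0.105) and Pax7, a dermomyotome and dorsal neural tube factor, at -0.11 (SE 0.12). The adjusted p of every gene named in these lists except Uncx was 0.9997 in limma over all genes. Over all 12393 genes, 51.9% had a positive difference.

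**Figure D4:**
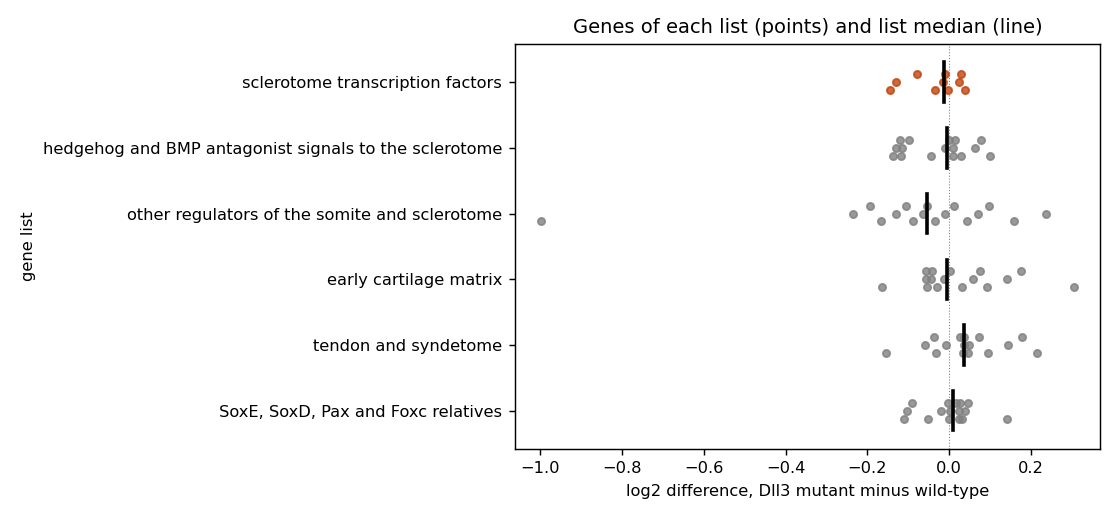
Log2 difference, Dll3 mutant minus wild-type, of the genes (points) of the sclerotome transcription factors and of 5 lists around them, with the list median as a black line. The 10 factors lie between -0.15 and 0.04, and Uncx is the point at -0.998.

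Markers of the neighbouring somite compartment and of neural crest were set beside Scx and Sox9, which border on those tissues. Of 11 dermomyotome and myotome genes 4 were higher and 7 lower (median -0.03), from Myog, a myogenic regulator, at 0.30 (SE 0.0799) to Dmrt2, a dermomyotome factor, at -0.23 (SE 0.109). Of 8 measured neural crest genes 6 were higher and 2 lower (median 0.03), from Mitf, a pigment cell factor, at 0.11 (SE 0.0717) to Foxd3, a neural crest factor, at -0.14 (SE 0.0911). Neural tube genes were higher for 7 of 10 (median 0.03), endothelial genes for 8 of 10 (median 0.04), endoderm and surface epithelium genes for 8 of 9 (median 0.14), lateral plate and limb genes for 4 of 10 (median -0.07), intermediate mesoderm genes for 3 of 6 (median -0.03) and notochord and floor plate genes for 2 of 4 (median -0.02). The extremes of these lists were Fabp7 at 0.27 and Olig2 at -0.23, Cd34 at 0.20 and Pecam1 at -0.10, Cdh1 at 0.41 and Foxa2 at -0.05, Tbx5 at 0.08 and Tbx4 at -0.31, Wt1 at 0.09 and Sall1 at -0.11, and Foxa1 at 0.37 and Shh at -0.13, in that order. Of the genes named here, Myog (0.00358) and Tbx4 (0.0323) had an unadjusted p under 0.05 in limma, where 2.67% of all genes did. Pools of Myog and of Mitf did not overlap between genotypes, which held for 7.46% of all genes. None of these genes passed the adjusted threshold. The part of the other cell types in the values of the 10 factors was not tested.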

How the data were processed

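Affymetrix MOE430A arrays of 3 Dll3 mutant and 3 wild-type pools were analysed. The authors deposited 1 table of 22690 probe sets, read as linear ratios from its values: they run from 0.266 to 2.498 and 93.4% of rows have a median of 1 (within 0.0015), with no higher median. The tools RMA and MAS5 appear, per the submitters' processing notes, with neither version nor role. Scaling, reference and genome build are not given in the sources used here. Without intensities no filter on dim probe sets was possible.

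After 64 control probe sets were left out, log2 ratios (no pseudocount) were fitted with limma 3.58.1 in R 4.3.3 (lmFit, eBayes, genotype only, two-sided, Benjamini-Hochberg over all 22626 probe sets or 12393 genes, threshold 0.05). The script was tested on simulated data. Probe sets with 1 annotated gene (20380) were named, and those with several (691) or none (1555) were not. Symbols were updated through gene identifiers for 20351 of them (GRCm38.p6). A gene's value is the mean of its probe sets' log2 ratios. Named are all 10 factors, the highest and lowest gene of each list, the 3 genes most like the mean of Pax1, Pax9 and Nkx3-2, Dll3 and Xist, and, chosen after their values were seen, Nog, Kdm5d and Uty. Members and lists were chosen with earlier results of these data known. Same-numbered pools' deviations from their group means correlated over all probe sets at 0.37, -0.02 and 0.37 for replicates 1, 2 and 3. Between differently numbered pools the correlations ran from -0.43 to 0.20. The labels state no pairing, and these values do not settle whether the numbers pair the pools. Alternatives were a replicate block, a variance trend, array weights, quantile normalization, median centring, probe sets or pools left out, only the most variable probe set of a gene, and a sex score (Xist minus the mean of Eif2s3y, Kdm5d and Uty) as a covariate. Figures were drawn with matplotlib 3.10.9.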

Additional observations from a re-analysis of the deposited data

How the results depend on the processing

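The 10 factors stayed short of the adjusted threshold in limma in all 16 alternatives, with a smallest adjusted p of 0.535 (Scx, with array weights). Of 160 alternative values, 135 kept the sign of the difference and 25 did not. Scx (-0.20 to -0.10), Twist1 (-0.34 to -0.00699) and Pax9 (-0.07 to -0.00148) kept theirs throughout. The 135 include values that could not change, so the tally does not measure stability. The replicate block, the variance trend and leaving out probe sets named _x_at or _s_at left all 10 differences as they were. Leaving out rows of median below 1 changed only Sox6. Taking the most variable probe set could not change the 5 genes with a single one. The counts of probe sets and of genes past the threshold were 0 (595 and 331 at an unadjusted p under 0.05). Each count was 1, Uncx, with the replicate block (1072 and 617 unadjusted) and with array weights (1770 and 1200), and that of genes was 1, again Uncx, with a variance trend. Leaving out a pool gave 0 to 1 of each, the 1 being Xist, without wild-type replicate 1. Median differences of the factors ran from -0.06 to -0.00234, and the replicate block left it at -0.0129.

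Differences that changed sign were -0.013 for Pax1, -0.0238 for Sox9 and 0.0259 for Sox6 with array weights, 0.0603 for Sox6 without rows of median below 1, -0.00671 for Foxc1 with its most variable probe set, and -0.31 for Pax1, -0.00618 for Sox9, 0.00806 for Sox6 and 0.0365 for Foxc2 with the sex score. With that score, which is confounded with genotype, Foxc1 was at 0.34 and Nkx3-2 at -0.23. Without both pools numbered 3, chosen after seeing the data, they were -0.15 for Pax1, -0.0261 for Sox9 and 0.00687 for Sox5. With single pools left out the ranges were -0.10 to 0.13 for Pax1, -0.0976 to 0.0459 for Nkx3-2, -0.00408 to 0.0759 for Sox9 and -0.0378 to 0.0371 for Sox5. They were -0.0459 to 0.0426 for Sox6, -0.0927 to 0.161 for Foxc1 and -0.344 to 0.0152 for Foxc2. The lowest Foxc2 value came without mutant replicate 3, with an unadjusted p of 0.0498 and an adjusted p of 0.9996 in limma. The cause was not tested, except that fewer pools or probe sets enter where some are left out.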
